A study of Homo sapiens with 10 samples.

Results

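ABTr1 is 1 of 4 clones of the ovarian cancer cell line PEO1 that had become resistant to veliparib, and its RNA was compared with the mean of the other 3 clones, ABTr2, ABTr3 and ABTr4. The comparison used 8 of the 10 libraries of polyadenylated RNA, taken by clone name: 2 of ABTr1 and 2 of each other clone, numbered replicate 1 and replicate 2. PEO1 was grown from a serous ovarian carcinoma and lacks working BRCA2, and veliparib (ABT-888) inhibits PARP enzymes. All 4 clones arose from PEO1 under continuous veliparib at 40 µM. They spent 6 months on the drug and 4 to 5 days off it before RNA was collected. The labels name no difference between the groups other than the clone. The 2 libraries of parental PEO1 were not compared and are quoted only as levels. Each group is a single clone, and the labels do not say whether its 2 libraries came from separate cultures. The p-values measure the spread left between libraries once the clone and the replicate number are fitted, and that spread may be technical.

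BRCA2 is needed for homologous recombination at DNA breaks, and cells without it depend on PARP1 to keep single-strand damage from becoming double-strand breaks. PARP inhibitors are therefore toxic to such cells, and known routes to resistance include restored recombination, loss of PARP1 or of end protection factors, and drug efflux. The series concerns readthrough of a stop codon in BRCA2, and the comparison here asks which genes set ABTr1 apart from clones selected in the same way.

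ABTr1 was higher than the mean of the other clones in VIM (vimentin), NOTCH3, SCNN1A, PRSS8 and a number of hypoxia and axon guidance genes. It was lower in 4 CXCL chemokines and in a number of cholesterol synthesis genes and respiratory chain subunits. Fewer of these passed against each of the other 3 clones. They were VIM, NOTCH3, SCNN1A, PRSS8, CXCL8, CXCL1, 4 cholesterol synthesis genes and 1 hypoxia gene, with 0 axon guidance genes and 0 respiratory chain subunits. The neighbouring promoters of 4 chemokines that were lower are shown here because the genes lie in 1 cluster on chromosome 4 and share a motif. The motif is GGAATTTCC, a site of the type bound by NF-kB, searched on both strands in the 250 bases before the gene start and printed in capitals. The CA9 promoter follows, with the hypoxia motif ACGTG in capitals as its complement. All are from RefSeq on GRCh38.p14 and read 5′ to 3′ on the strand of the gene: chr4:73740319-73740568 for CXCL8, chr4:73869143-73869392 for CXCL1, chr4:74038690-74038939 (minus strand) for CXCL3, chr4:74099196-74099445 (minus strand) for CXCL2 and chr9:35673678-35673927 for CA9.
CXCL8: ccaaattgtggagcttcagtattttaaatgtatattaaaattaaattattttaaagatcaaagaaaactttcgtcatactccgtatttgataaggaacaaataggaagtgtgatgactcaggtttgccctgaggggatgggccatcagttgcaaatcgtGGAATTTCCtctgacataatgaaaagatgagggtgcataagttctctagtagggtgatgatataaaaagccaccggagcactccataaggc
CXCL1: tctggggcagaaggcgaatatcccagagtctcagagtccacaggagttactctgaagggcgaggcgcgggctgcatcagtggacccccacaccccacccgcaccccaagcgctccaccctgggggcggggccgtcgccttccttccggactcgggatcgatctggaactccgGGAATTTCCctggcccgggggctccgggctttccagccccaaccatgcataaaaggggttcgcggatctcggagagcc
CXCL3: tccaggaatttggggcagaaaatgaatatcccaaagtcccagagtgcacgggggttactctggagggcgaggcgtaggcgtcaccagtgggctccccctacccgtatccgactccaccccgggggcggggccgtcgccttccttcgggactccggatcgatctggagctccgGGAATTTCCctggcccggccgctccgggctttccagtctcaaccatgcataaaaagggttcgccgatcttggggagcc
CXCL2: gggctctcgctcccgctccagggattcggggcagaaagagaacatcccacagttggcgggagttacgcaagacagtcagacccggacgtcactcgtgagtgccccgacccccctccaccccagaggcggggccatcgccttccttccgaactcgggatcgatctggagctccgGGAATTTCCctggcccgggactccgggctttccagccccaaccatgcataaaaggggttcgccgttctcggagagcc
CA9: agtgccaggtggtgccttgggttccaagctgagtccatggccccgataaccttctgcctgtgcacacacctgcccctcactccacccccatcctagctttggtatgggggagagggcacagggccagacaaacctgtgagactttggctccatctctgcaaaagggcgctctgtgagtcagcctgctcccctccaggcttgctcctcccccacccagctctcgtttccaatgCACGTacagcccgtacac
GGAATTTCC begins 91 bases before the start of CXCL8, 78 before CXCL1 and CXCL3 and 77 before CXCL2. It occurs in 145 of 35116 RefSeq promoter windows of this length (0.413%). ACGTG occurs in 18.5% of these windows, and in CA9 its first base lies 18 bases before the start. A match describes the letters in the window and is not evidence that a factor binds there.

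Depth in the 8 clone libraries ran from 20640602 to 55488566 reads counted to genes, with 32653679 and 30285440 in ABTr1 replicates 1 and 2. The replicate number was the strongest difference among these libraries. The leading principal component held 48.2% of the variance and separated replicate 1 from replicate 2 in each clone, but ABTr1 replicate 1 stood apart from the other replicate 1 libraries. It lay at -3.0 on that component, beside ABTr3 replicate 2 at -0.47, while the replicate 1 libraries of the other clones lay between 46.9 and 63.2. The correlation of replicate deviations across 16343 genes was 0.456 to 0.739 over the 6 pairs of clones, and the replicate number was therefore kept as a block in the fit. The SD of the log2 difference between replicates across genes was 0.697 in ABTr1, against 0.985, 0.773 and 0.826 in ABTr2, ABTr3 and ABTr4.

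With the block, 1858 of 16343 tested genes (11.4%) passed edgeR's quasi-likelihood test at a Benjamini-Hochberg adjusted p under 0.05. Of these, 1134 (6.94%) were higher in ABTr1 and 724 (4.43%) were lower, and 520 and 123 of them differed by at least 2-fold. These calls rest on the block and on 1 library. Without the block 2 genes passed, IPCEF1 and SESN3, with 1606 at an unadjusted p under 0.05. With ABTr1 replicate 1 left out 72 genes passed, and with ABTr4 replicate 1 left out 742. All 72 were among the 1858. The number passing was 1141 without ABTr1 replicate 2, of which 848 were shared, 712 without the clone ABTr4 and 2804 without the clone ABTr2. With both parental libraries added to the fit, 489 passed, 375 of them higher.

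Of the 1134 genes called higher in ABTr1, 925 (81.6%) also had a higher level in replicate 2 than in replicate 1 on average over the clones, against 50.6% of all tested genes. Of the 724 called lower, 510 (70.4%) were lower in replicate 2, against 49.4% of all tested genes. The median difference of the genes called higher was 1.12 on the log2 scale among replicate 1 libraries and 0.72 among replicate 2 libraries. For the genes called lower it was -0.76 and -0.70. The sign of the clone difference and that of the replicate difference thus coincided in most called genes, and the part of the replicate number in these calls was not tested.

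**Figure D1:**
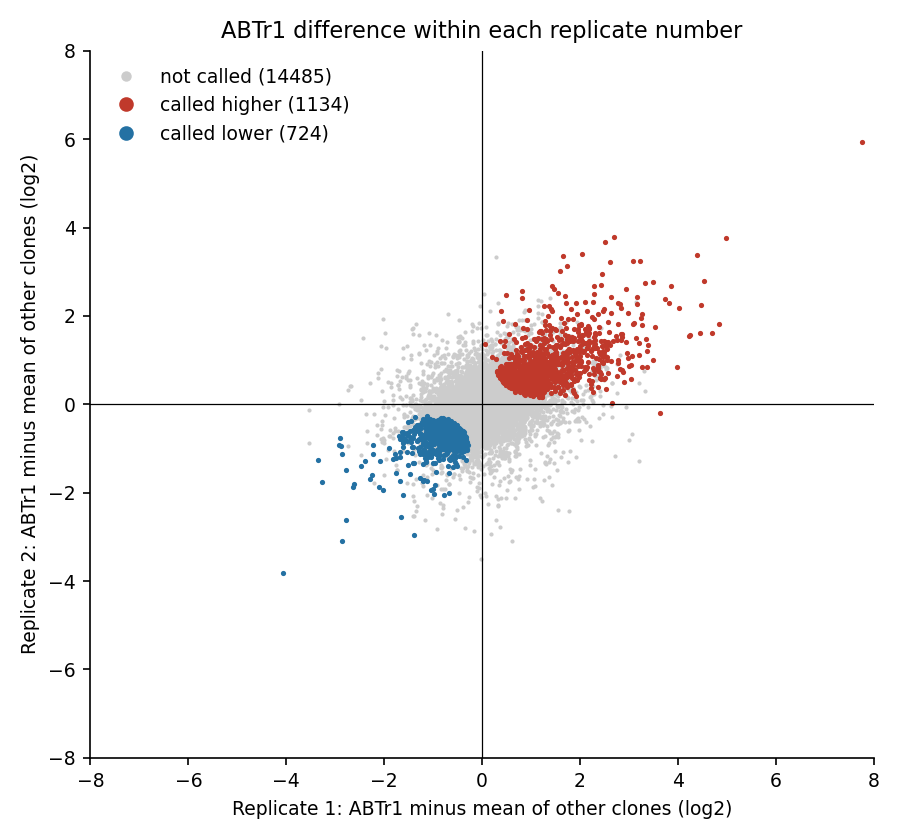
Difference between ABTr1 and the mean of the other 3 clones in log2 CPM, among replicate 1 libraries (horizontal axis) and replicate 2 libraries (vertical axis), 1 point per tested gene. The 1134 genes called higher (red) lie in the upper right and extend further along the replicate 1 axis, and the 724 called lower (blue) lie in the lower left.

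The fewest genes passed against ABTr2. Taken against each clone in the same fit, 288 genes (1.76%) passed against ABTr2, of which 158 (0.967%) were higher in ABTr1 and 130 (0.795%) lower. Against ABTr3 1629 (9.97%) passed, with 920 (5.63%) higher and 709 (4.34%) lower. Against ABTr4 1626 (9.95%) passed, with 969 (5.93%) higher and 657 (4.02%) lower. These comparisons share the ABTr1 libraries, and the difference between these counts was not tested. A set of 120 genes (0.734%) also passed against every one of the 3 clones, 71 of them higher each time (0.434%) and 49 lower each time (0.3%). Both ABTr1 libraries lay above all 6 other clone libraries for 568 of the 1134 genes called higher (50.1%), against 1183 of all tested genes (7.24%), and below all 6 for 391 of the 724 called lower (54.0%), against 972 (5.95%).

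Among these 120, IPCEF1 had the largest difference. IPCEF1 (hg19 chr6:154475618-154677900) encodes a protein that interacts with the ARF6 exchange factor cytohesin 3. In counts per library scaled by depth (CPM), it stood at 62.1 and 15.5 in ABTr1 replicates 1 and 2, at 0.218 and 0.290 in ABTr2, at 0.402 and 0.177 in ABTr3 and at 0.129 and 0.154 in ABTr4. The parental libraries held 0.124 and 0.0774. The transcript was thus near the limit of detection outside ABTr1, and the 2 ABTr1 libraries differed from each other. This gave a log2 fold change of 7.39 with an SE of 0.32 (adjusted p = 1.4e-07), and it passed under each of the 18 other settings.

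VIM encodes vimentin, the intermediate filament of mesenchymal cells. Its level was 369.8 and 391 CPM in the ABTr1 libraries, 93.7 and 97.2 in ABTr2, 37.9 and 89.7 in ABTr3 and 38.7 and 60.3 in ABTr4. All clone libraries lay above the parental levels of 2.60 and 0.735, and ABTr1 lay above every other clone library. The log2 fold change was 2.54 (SE 0.19, adjusted p = 3.4e-05). Bulk RNA does not tell apart a larger share of vimentin-positive cells from more vimentin RNA per cell, here and for the genes that follow.

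NOTCH3, a receptor of the Notch pathway, stood at 23.7 and 32.0 CPM in ABTr1, against a lowest, median and highest level of 2.19, 3.82 and 12.3 in the other 6 libraries, with no overlap. Its log2 fold change was 2.74 (SE 0.25, adjusted p = 0.00018). It was the only 1 of 14 tested Notch genes that passed, near the 6.94% called higher over all tested genes, and the list median was -0.07. PRSS8 (prostasin, a serine protease of epithelia) stood at 17.2 and 8.86 in ABTr1 and at 0.650 to 3.48 in the others, a log2 fold change of 3.18 (SE 0.33, adjusted p = 0.00044). SCNN1A, the alpha subunit of the epithelial sodium channel that prostasin activates, stood at 42.8 and 95.9 in ABTr1 and at 2.68 to 41.3 in the others, a log2 fold change of 2.99 (SE 0.28, adjusted p = 0.00025). Both genes were separated from the other clones, and the parental levels were higher for both, at 51.6 and 158 for PRSS8 and 99.9 and 516 for SCNN1A.

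SESN3, a sestrin that restrains mTORC1, stood at 16.7 and 28.6 CPM in ABTr1 and at 1.49 to 5.73 elsewhere, a log2 fold change of 2.95 (SE 0.20, adjusted p = 2.0e-05). RASGRP3, an exchange factor for RAS proteins, had 16.6 and 14.6 in ABTr1 and 1.4 to 3.62 in the others, with a log2 fold change of 2.72 (SE 0.22, adjusted p = 8.3e-05). LTBP2, a matrix protein related to the binding proteins of latent TGF-beta, was at 33.8 and 29.7 against 6.89 to 12.4, with a log2 fold change of 1.77 (SE 0.17, adjusted p = 0.00025). In all 3 genes both ABTr1 libraries lay above every other clone library. The other genes among the 15 largest on the higher side were CHRNA9, MKX, FCGRT, TSPAN18, FEZ1, GPC3 and SATB1, with log2 fold changes from 1.75 (SATB1) to 2.27 (CHRNA9). SATB1, a chromatin organizer, was the only one whose ABTr1 libraries did not both lie above all others. It stood at 32.1 and 70.3 in ABTr1 and reached 36.2 in ABTr2 replicate 2.

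On the lower side GATA2, a zinc finger transcription factor best known from blood progenitors and endothelium, stood at 0.650 and 0.461 CPM in ABTr1, 10.8 and 7.44 in ABTr2, 3.54 and 3.25 in ABTr3 and 3.25 and 3.26 in ABTr4. The ABTr1 libraries were the lowest of the clones, and the parental libraries held 0.297 and 4.87. The log2 fold change was -3.08 (SE 0.32, adjusted p = 0.00044). TNFRSF11B, which encodes the decoy receptor osteoprotegerin, stood at 1.98 and 3.97 in ABTr1 and at 5.70 to 10.5 in the others (log2 fold change -1.69, SE 0.29, adjusted p = 0.0052). CHAC2, an enzyme that degrades glutathione, stood at 9.50 and 5.63 against 11.1 to 38.8 (log2 fold change -1.68, SE 0.21, adjusted p = 0.0012). The remaining genes among the 15 largest on this side were CXCL8, CXCL1, SBSN, C14orf2, PTPRR, GAL, TMEM178B, LINC00152, DANCR, INSIG1, ACYP2 and PNP. In all 15, both ABTr1 libraries lay below the other 6. Of the 15 genes on the higher side 10 still passed without ABTr1 replicate 1, and of the 15 on the lower side 5 did: GATA2, CHAC2, C14orf2, PTPRR and TMEM178B. All 30 passed when any other single library was left out.

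**Figure D2:**
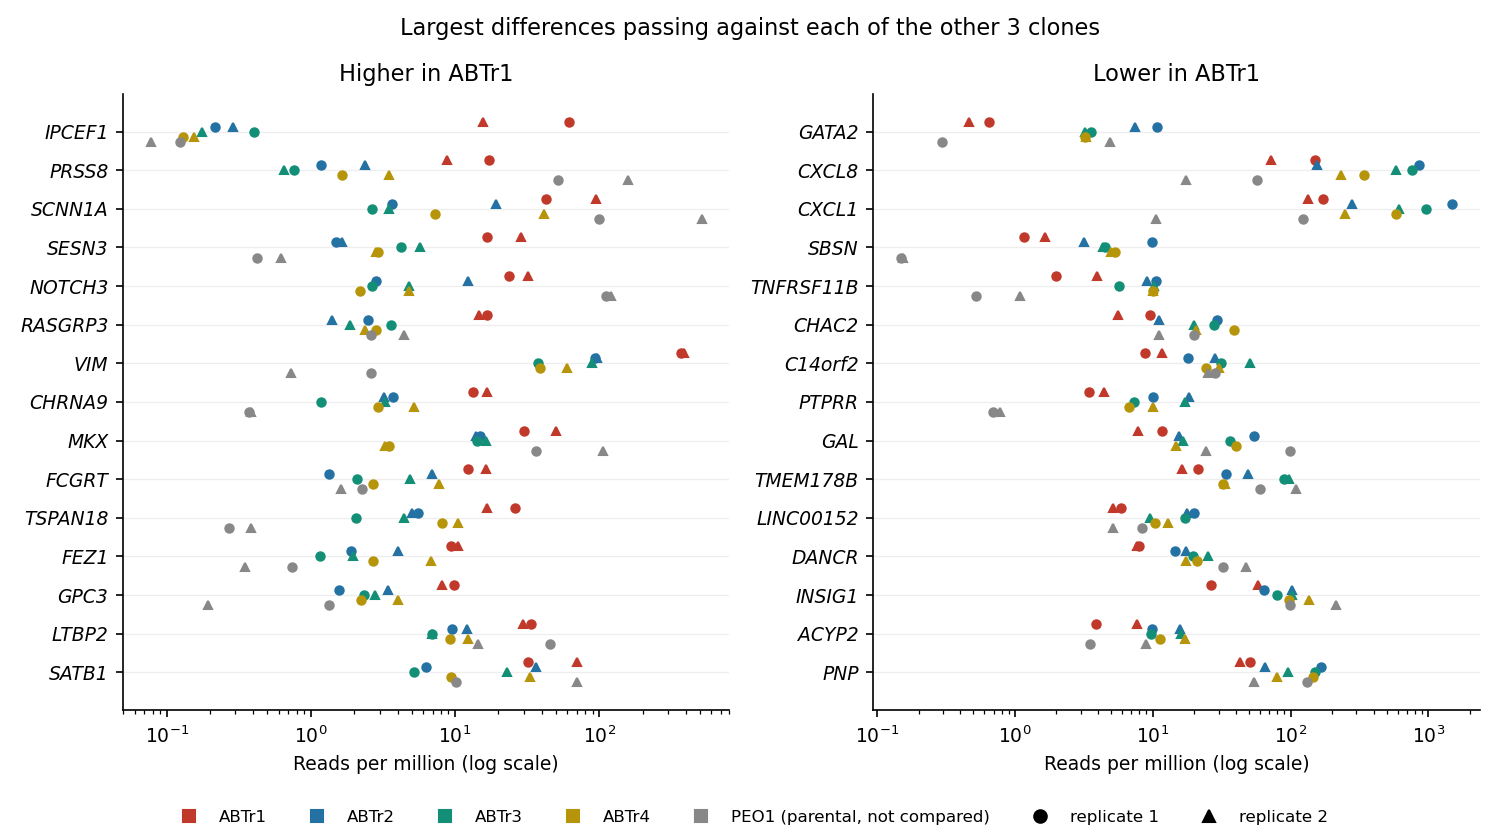
Levels in CPM (log axis) of the 15 genes with the largest higher (left) and lower (right) differences among those passing against each of the other 3 clones, with 1 point per library, colour for the clone and symbol for the replicate number. The red ABTr1 points lie beyond all 6 other clone points in 29 of the 30 genes, SATB1 being the exception, and the grey parental points are shown as levels only.

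Some inflammatory genes, led by chemokines, were lower in ABTr1. CXCL8 and CXCL1 attract neutrophils and are targets of NF-kB. CXCL8 stood at 151 and 72.0 CPM in ABTr1, 847 and 156 in ABTr2, 759.7 and 581 in ABTr3 and 339 and 234 in ABTr4. CXCL1 stood at 172 and 133 in ABTr1, 1486 and 280.0 in ABTr2, 957 and 611 in ABTr3 and 578 and 247 in ABTr4. Both genes were lowest in ABTr1 within each replicate number and over all libraries, with log2 fold changes of -2.05 (SE 0.33, adjusted p = 0.0038) and -1.92 (SE 0.33, adjusted p = 0.0048). The neighbouring CXCL3 stood at 3.45 and 2.61 against 3.82 to 12.2 (log2 fold change -1.21, SE 0.28, adjusted p = 0.018), also without overlap. CXCL2 stood at 34.6 and 15.3, at 29.1 and 19.5 in ABTr4 and up to 151 in ABTr3 (log2 fold change -0.95, SE 0.26, adjusted p = 0.033). CXCL2 thus overlapped ABTr4, and against that clone it did not pass (log2 fold change -0.12, adjusted p = 0.84).

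Of 29 tested NF-kB and inflammation genes, 7 passed as lower (background 4.43%) and 0 as higher, and the list median was -0.21 against 0.0078 over all tested genes. Besides the 4 chemokines they were IL6, IL1A and SOD2. IL6, a cytokine, stood at 6.22 and 7.57 in ABTr1, at 71.0 and 23.1 in ABTr2, 41.6 and 52.8 in ABTr3 and 6.17 and 17.2 in ABTr4. Its log2 fold change was -2.12 (SE 0.44, adjusted p = 0.012), with -0.75 and an adjusted p of 0.36 against ABTr4 alone. IL1A, the cytokine interleukin 1 alpha, had 22.5 and 11.7 in ABTr1 and 22.1 to 70.0 in the others (log2 fold change -1.48, SE 0.27, adjusted p = 0.0071). SOD2, the mitochondrial superoxide dismutase, ranged from 95.6 in ABTr1 replicate 1 to 2161 in ABTr2 replicate 2 and was mainly divided by replicate number. Of the 22 list members with a RefSeq promoter, 7 held GGAATTTCC and 7 passed, and 4 genes did both. These 4 are the chemokines whose promoters are shown above because they share the motif, so the overlap is not a test of a link. The list median was -0.67 against ABTr2, -0.21 against ABTr3 and -0.13 against ABTr4. None of the 7 passed without ABTr1 replicate 1.

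A number of cholesterol synthesis genes were lower in ABTr1. Sterol shortage activates SREBP2, which drives the enzymes from acetyl-CoA to cholesterol, and INSIG1 holds SREBP in the endoplasmic reticulum when sterols are abundant. Of 21 tested members 10 passed as lower (background 4.43%) and 0 as higher, all 21 had a negative log2 fold change, and the median was -0.61. That median was -0.58, -0.54 and -0.65 against ABTr2, ABTr3 and ABTr4, and it was -0.75 among replicate 1 and -0.43 among replicate 2 libraries. IDI1, which makes the isoprenoid unit dimethylallyl diphosphate, stood at 33.9 and 45.7 CPM in ABTr1, 74.6 and 101 in ABTr2, 71.1 and 87.8 in ABTr3 and 95.8 and 113 in ABTr4. Both ABTr1 libraries were below all others, and the log2 fold change was -1.20 (SE 0.15, adjusted p = 0.0012). INSIG1 stood at 26.4 and 58.0 in ABTr1 and at 64.3 to 135 elsewhere (log2 fold change -1.27, SE 0.18, adjusted p = 0.0023). MSMO1, a demethylase late in the pathway, was at 23.6 and 50.7 in ABTr1 and at 37.2 to 132 elsewhere (log2 fold change -1.14, SE 0.17, adjusted p = 0.0023), overlapping only across replicate numbers. HMGCS1, an early enzyme of the pathway, stood at 119 and 142 against 174 to 345 (log2 fold change -1.04, SE 0.15, adjusted p = 0.0023). FDFT1 (squalene synthase) and SQLE (squalene epoxidase) also passed, with log2 fold changes of -0.95 and -0.80. With ABTr1 replicate 1 left out 1 list member passed.

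Of the hypoxia and glycolysis genes, the larger number were higher. HIF transcription factors, which the VHL protein marks for degradation when oxygen is present, induce carbonic anhydrases, glycolytic enzymes and angiogenic factors. Of 24 tested members 14 passed as higher (background 6.94%) and 0 as lower, 23 had a positive log2 fold change, and the median was 0.59. The median was 0.30 against ABTr2, 0.59 against ABTr3 and 1.00 against ABTr4, and 0.85 among replicate 1 against 0.37 among replicate 2 libraries. CA9, a carbonic anhydrase of the cell surface, stood at 36.4 and 10.4 CPM in ABTr1, 3.87 and 8.36 in ABTr2, 0.804 and 0.532 in ABTr3 and 1.20 and 2.09 in ABTr4. The ABTr1 libraries were the highest, with ABTr1 replicate 2 close to ABTr2 replicate 2, and the log2 fold change was 3.58 (SE 0.41, adjusted p = 0.0007). Against ABTr2 alone CA9 did not pass (1.90, adjusted p = 0.094). BNIP3, a mitophagy receptor, was at 232 and 163 in ABTr1 and at 75.3 to 102 elsewhere, and it passed against each clone (log2 fold change 1.08, SE 0.17, adjusted p = 0.0033). PFKFB4, a regulator of glycolysis, stood at 23.4 and 15.8 against 3.51 to 10.5 (log2 fold change 1.81, SE 0.27, adjusted p = 0.0026). Several other members overlapped ABTr2: ADM (adrenomedullin) stood at 47.1 and 80.0 in ABTr1 and at 40.0 and 81.1 in ABTr2, and VEGFA at 72.9 and 52.7 against 35.6 and 73.6. VHL itself, outside the list and on chromosome 3, stood at 693 and 839.8 in ABTr1 and at 220.4 to 609 elsewhere (log2 fold change 0.91, SE 0.18, adjusted p = 0.0094). Of 21 list members with a RefSeq promoter, 12 held ACGTG, 6 of them among the 12 that passed and have a promoter entry. Only 1 of the 14 passed without ABTr1 replicate 1, and 3 members of the list did without the clone ABTr4.

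Of 27 tested respiratory chain subunits, 8 passed as lower (background 4.43%) and 0 as higher, and 24 had a negative log2 fold change. The median was -0.41, with -0.38, -0.37 and -0.47 against the 3 clones in order. Of the 27 subunits, 0 passed against each clone. NDUFA4, a subunit assigned to cytochrome c oxidase, stood at 47.0 and 57.9 CPM in ABTr1 and at 63.7 to 142 elsewhere, without overlap (log2 fold change -0.86, SE 0.18, adjusted p = 0.011). COX5A, a subunit of the same complex, stood at 64.1 and 60.6 against 81.7 to 98.6 (log2 fold change -0.52, SE 0.15, adjusted p = 0.039). A single member (1 of 27) passed when either ABTr1 library, or the clone ABTr4, was left out.

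**Figure D3:**
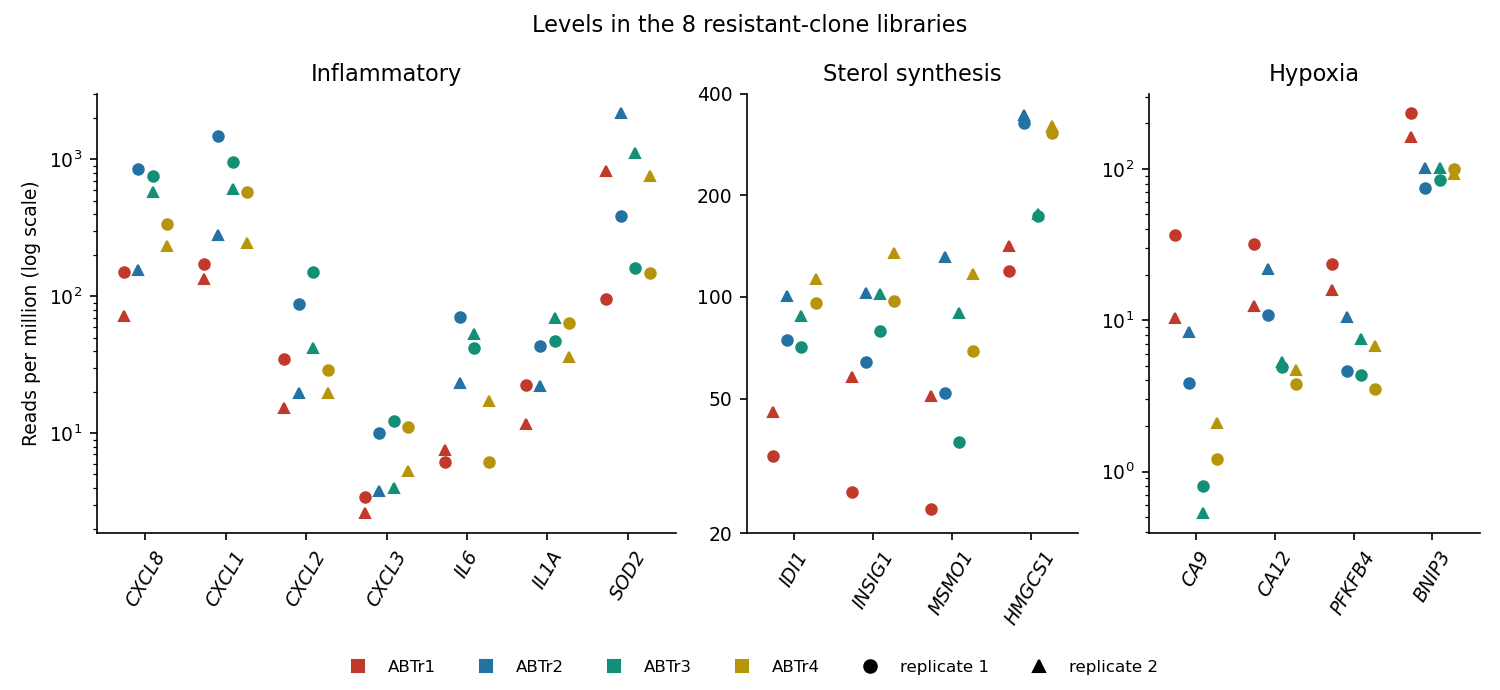
Levels in CPM (log axes) in the 8 resistant-clone libraries for genes of inflammation, sterol synthesis and hypoxia, with colour for the clone and symbol for the replicate number. ABTr1 (red) holds the lowest point for CXCL8, CXCL1, CXCL3, IDI1, INSIG1 and HMGCS1 and the highest for CA9, PFKFB4 and BNIP3, while SOD2 is divided by replicate number.

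Some adhesion and matrix genes were higher in ABTr1, although most members of these lists did not pass. Over all tested genes 6.94% passed as higher and 4.43% as lower. Of 48 tested genes of axon guidance and neuronal adhesion, 19 passed as higher and 2 as lower, and 0 passed against each clone. The list median was 0.67 (0.37, 0.68 and 0.79 against ABTr2, ABTr3 and ABTr4). CNTN1 (contactin 1), a neuronal adhesion protein, stood at 9.87 and 7.26 CPM in ABTr1 and at 1.14 to 4.80 elsewhere (log2 fold change 2.01, SE 0.22, adjusted p = 0.0007). SEMA3A, a secreted semaphorin, stood at 44.3 and 80.0 in ABTr1 and at 15.3 and 49.7 in ABTr2, its nearest clone (log2 fold change 1.32, SE 0.21, adjusted p = 0.0033). SLIT2, a ligand of ROBO receptors, stood at 49.3 and 122 in ABTr1 and at 83.5 and 52.5 in ABTr2, so the 2 clones overlapped, while ABTr3 and ABTr4 held 13.9 to 30.0 (log2 fold change 1.63, SE 0.32, adjusted p = 0.0093). Of 31 integrins and laminins 10 passed as higher and 1 as lower (median 0.49), of 23 collagens 6 and 0 (median 0.64), of 22 cadherins and protocadherins 7 and 0 (median 0.26) and of 33 matrix proteases and inhibitors 6 and 2 (median 0.36). ITGB4, the hemidesmosome integrin, stood at 339 and 520.1 in ABTr1, 97.6 and 454 in ABTr2, 84.4 and 164 in ABTr3 and 23.4 and 105 in ABTr4. Within each replicate number ABTr1 was highest (log2 fold change 1.98, SE 0.25, adjusted p = 0.0012), and against ABTr2 alone the gene did not pass (1.00, adjusted p = 0.13). ITGA7, a laminin receptor, passed against each clone, at 11.8 and 8.95 against 2.74 to 5.88 (log2 fold change 1.5, SE 0.25, adjusted p = 0.0048). In edgeR's test 3 axon guidance genes, 1 collagen and 0 integrins, laminins, cadherins or matrix proteases were still higher without ABTr1 replicate 1. Without the clone ABTr4, 7 axon guidance genes, 3 collagens, 5 integrins and laminins, 4 cadherins and 3 matrix proteases were higher. With DESeq2 on all 8 libraries 20 axon guidance genes, 7 collagens and 11 integrins and laminins did.

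Members of both the epithelial and the mesenchymal list were higher in ABTr1. Of 30 tested epithelial genes 11 passed as higher (background 6.94%) and 0 as lower, and 25 had a positive log2 fold change and 5 a negative one. The list median was 0.72, but 1.09 among replicate 1 and 0.21 among replicate 2 libraries. CDH1, which encodes E-cadherin, stood at 9.56 and 1.51 CPM in ABTr1, 0.618 and 1.69 in ABTr2, 1.21 and 0.236 in ABTr3 and 0.0430 and 0.215 in ABTr4. Only ABTr1 replicate 1 stood out, and the parental libraries held 147 and 358. The log2 fold change of 3.32 (SE 0.67, adjusted p = 0.01) was not past the threshold against ABTr2 (adjusted p = 0.28) or ABTr3 (0.054). ST14 (matriptase) stood at 77.1 and 86.4 in ABTr1 and at 52.3 and 84.5 in ABTr2, and its log2 fold change of 1.22 (SE 0.15, adjusted p = 0.0012) came from ABTr3 at 35.6 and 42.9 and ABTr4 at 12.3 and 21.1. Of 23 mesenchymal genes 5 passed as higher against the same background (VIM, LOX, ACTA2, SPARC and FBN1) and 0 as lower, with a median of 0.02, and VIM alone passed against each clone. The summed level of 7 defining epithelial markers (EPCAM, KRT8, KRT18, KRT19, KRT7, CDH1 and PAX8) was 2904 and 3157 CPM in ABTr1, within the range of 2712 to 3533 in the other clones. Among these 7, EPCAM and CDH1 passed as higher. KRT8 did not pass and stood at 789 and 882 in ABTr1, below every other clone library (901 to 1396). KRT18 overlapped the other clones, at 337 and 448 against 389 to 525. The fibroblast markers COL3A1, DCN and LUM had 0 reads in all 10 libraries, and the 6 fibroblast markers together held 11.4 and 11.7 CPM in ABTr1 against 1.93 to 16.7. Summed markers of leukocytes (5 genes) were 82.7 and 90.0 against 55.9 to 141, of mesothelium (4 genes) 129 and 185 against 44.0 to 185, and of endothelium (4 genes) 5.49 and 16.3 against 2.01 to 10.0. The part of other cell types in these lists was not tested. In edgeR's test 0 epithelial genes and 1 mesenchymal gene, VIM, passed without ABTr1 replicate 1, and 3 and 1 were higher without the clone ABTr4.

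Among signaling lists, 8 of 32 TGF-beta and BMP genes passed as higher and 1 as lower, with a median of 0.42, against 6.94% and 4.43% over all tested genes. TGFBR2, the type II TGF-beta receptor, stood at 361 and 379 CPM in ABTr1 and at 154 to 291 elsewhere (log2 fold change 0.79, SE 0.16, adjusted p = 0.01). Of 48 receptor tyrosine kinases and ligands 7 were higher and 1 lower. IGF1R, the receptor of insulin-like growth factor 1, stood at 33.0 and 30.2 against 5.07 to 23.4 (log2 fold change 1.25, SE 0.21, adjusted p = 0.0046) but did not pass against ABTr4 (0.50, adjusted p = 0.27). RARB, a retinoic acid receptor encoded on chromosome 3, passed against each clone at 19.1 and 50.8 against 2.74 to 33.7 (log2 fold change 1.67, SE 0.19, adjusted p = 0.0007), with ABTr1 highest within each replicate number. Of 11 genes of the serous ovarian lineage 5 passed as higher (KLK6, KLK5, MSLN, KLK10 and LHX1) and 1, WT1, as lower, with a median of 0.60. WT1 was low in all clones, at 0.254 and 0.308 CPM in ABTr1 and 0.145 to 3.20 elsewhere (log2 fold change -2.25, adjusted p = 0.043). The lowest level was that of ABTr2 replicate 2, so the clones overlapped. Of 42 interferon response genes 8 passed as higher and 0 as lower, and the list median was 0.40, with -0.10, 0.63 and 0.47 against ABTr2, ABTr3 and ABTr4. The list median was thus above 0 against ABTr3 and ABTr4 only, and 35 of the 42 were higher in replicate 2. Without ABTr1 replicate 1 the genes passing as higher were 1 in the TGF-beta and BMP list, 1 among receptor kinases and 0 in edgeR's test among lineage and interferon genes. Interferon genes passing as higher were 20 without the clone ABTr2, 3 without ABTr3 and 4 without ABTr4. EGR1, an immediate early gene, was higher by 2.22 on the log2 scale (SE 0.64, adjusted p = 0.041), with ABTr1 replicate 1 alone standing out at 125 CPM against 8.80 in replicate 2 and 3.03 to 22.5 elsewhere, and without that library the value was -0.30.

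Proliferation genes had negative differences, and few of them passed. All 30 tested DNA replication genes and all 26 mitosis genes had negative log2 fold changes, with medians of -0.52 and -0.41, and 6 and 4 of them passed as lower (background 4.43%). Against ABTr2 alone the medians were -0.09 and -0.10, against ABTr3 -0.79 and -0.58 and against ABTr4 -0.61 and -0.44. RRM2, a subunit of ribonucleotide reductase, stood at 433 and 127 CPM in ABTr1, 797 and 116 in ABTr2, 1038 and 498 in ABTr3 and 826 and 279 in ABTr4. Replicate number divided this gene more than the clone did (log2 fold change -1.06, SE 0.26, adjusted p = 0.022). All 30 replication genes and 23 of the 26 mitosis genes had their lower level in replicate 2. All 14 tested histone genes were negative too, with a median of -0.82, and 2 passed. None of these genes passed without ABTr1 replicate 1, and without the clone ABTr2 21 replication and 14 mitosis genes did. Without the clone ABTr4, 1 replication gene and 0 mitosis genes passed in edgeR's test.

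**Figure D4:**
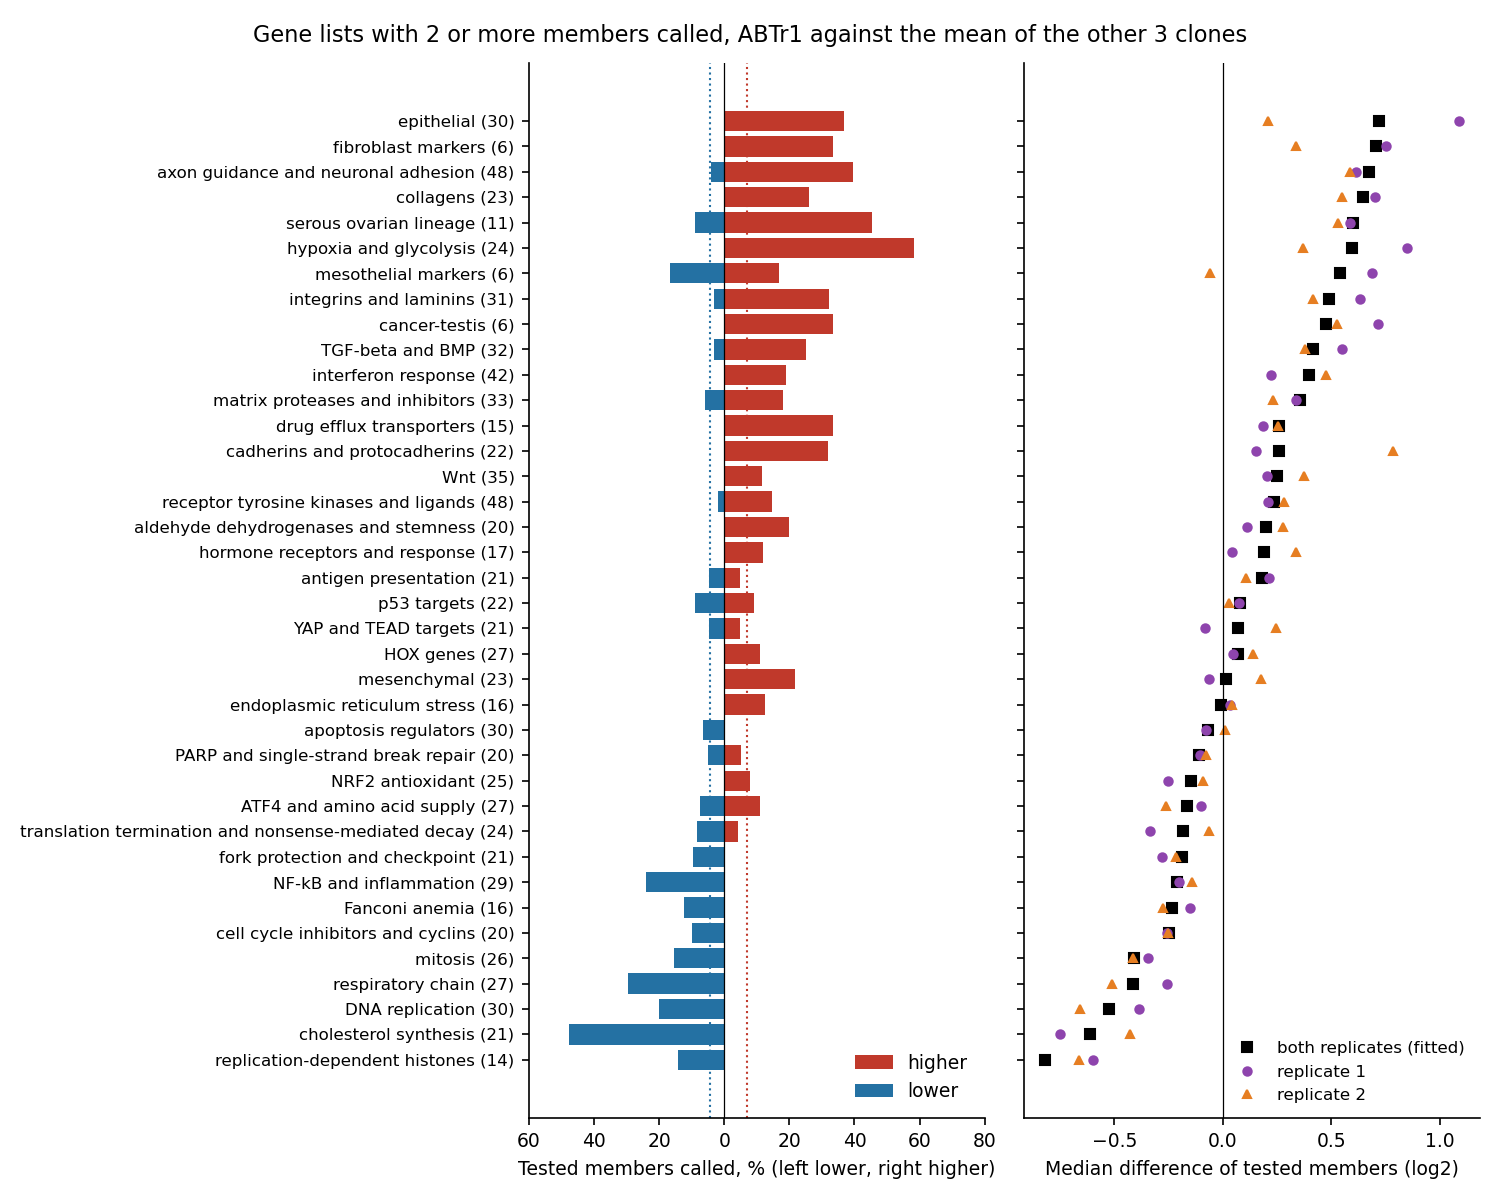
Gene lists with 2 or more members called in ABTr1 against the mean of the other 3 clones, with the number of tested members in parentheses. Left, the share of members called higher (red) and lower (blue), with dotted lines at 6.94% and 4.43%, the shares over all tested genes; right, the median log2 difference from the fit (black squares) and within replicate 1 (circles) and replicate 2 (triangles). Hypoxia, axon guidance and epithelial genes lie at the higher end and cholesterol synthesis and replication genes at the lower, and the epithelial circle and triangle lie 1.09 and 0.21 from 0.

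Genes known from PARP inhibitor response were examined in any case. BRCA2 stood at 37.2 and 14.2 CPM in ABTr1, 59.8 and 10.7 in ABTr2, 76.8 and 28.3 in ABTr3 and 43.8 and 18 in ABTr4. It followed the replicate number in every clone, and its log2 fold change of -0.52 (SE 0.22, adjusted p = 0.14) did not pass. It did pass without ABTr2 replicate 2 (-0.67, adjusted p = 0.0089) and without the clone ABTr2 (-0.66, adjusted p = 0.013). Of 24 tested homologous recombination genes 23 had a negative value (median -0.47) and 1 passed as lower, near the background of 4.43%. Lower calls numbered 13 without the clone ABTr2 and 6 with DESeq2. The gene that passed was the helicase HELQ at 12.2 and 17.0 against 18.1 to 27.3 (log2 fold change -0.64, SE 0.18, adjusted p = 0.038). PARP1, the main target of veliparib, stood at 171 and 145 in ABTr1 and at 101 to 268 elsewhere (log2 fold change -0.10, SE 0.19, adjusted p = 0.79). BRCA1 (-0.23), PARP2 (-0.50), PARG (-0.03), TP53BP1 (0.30), MAD2L2 (-0.31) and SLFN11 (-0.27) did not pass either, with adjusted p from 0.079 (PARP2) to 0.94 (PARG). PARP2 passed without ABTr2 replicate 2 (-0.58, adjusted p = 0.025) and without the clone ABTr2 (-0.61, adjusted p = 0.020). Of the other repair lists, PARP3 was higher (0.63, SE 0.16, adjusted p = 0.024), and APEX1, NHEJ1, TIPIN, EZH2, FANCA and UBE2T were lower, with log2 fold changes from -0.63 to -1.03. Most members did not pass. Of 20 PARP and single-strand break repair genes 1 was higher and 1 lower, and of 17 end joining genes 0 and 1. For 21 fork protection genes the counts were 0 and 2, and for 16 Fanconi anemia genes 0 and 2 (backgrounds 6.94% and 4.43%). APEX1 is the main endonuclease of base excision repair and NHEJ1 (XLF) supports ligation in end joining. None of these passed without ABTr1 replicate 1.

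In translation termination and nonsense-mediated decay, 1 of 24 tested genes passed as higher and 2 as lower, near the 11.4% that passed in either direction over all tested genes. ETF1, the release factor eRF1 that reads stop codons, stood at 102 and 85.2 CPM in ABTr1, 163 and 113 in ABTr2, 139.5 and 123 in ABTr3 and 172 and 112 in ABTr4. Both ABTr1 libraries were below all others (log2 fold change -0.55, SE 0.15, adjusted p = 0.037), but no single clone gave a passing difference, with adjusted p of 0.13, 0.096 and 0.054. The recycling factor ABCE1 was also lower (-0.85, SE 0.20, adjusted p = 0.022). EEF1A2, the elongation factor isoform of nerve and muscle, was at 156 and 141 in ABTr1, 26.2 and 75.8 in ABTr2, 71.3 and 194 in ABTr3 and 9.10 and 43.3 in ABTr4, overlapping ABTr3 (log2 fold change 1.77, SE 0.30, adjusted p = 0.0045). GSPT1 (-0.34), UPF1 (-0.05) and SMG1 (-0.30) did not pass, with adjusted p of 0.23, 0.89 and 0.30. None of the 24 passed without ABTr1 replicate 1.

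Of 15 drug efflux genes 5 passed as higher against a background of 6.94% (MVP, ABCB4, ABCB1, ABCA3 and ABCC3) and 0 as lower. The list median was 0.26, with 0.0017 against ABTr2, 0.38 against ABTr3 and 0.66 against ABTr4. Of the 15 genes, 0 passed against each clone, and 0 of the 5 had both ABTr1 libraries above all 6 others. ABCB1, the P-glycoprotein pump, stood at 1.27 and 0.984 CPM in ABTr1, 1.73 and 1.16 in ABTr2, 0.995 and 0.472 in ABTr3 and 0 in both ABTr4 libraries. ABTr1 thus lay among ABTr2 and ABTr3, against which ABCB1 did not pass (log2 fold change -0.34 and 0.65, adjusted p = 0.79 and 0.47), and its call in the mean rests on the 0 in ABTr4. ABCG2, another pump, stood at 7.58 and 2.98 in ABTr1 and at 2.25 to 10.9 elsewhere and did not pass (0.60, SE 0.42, adjusted p = 0.38). It passed without ABTr2 replicate 2 (0.92, adjusted p = 0.034) and without the clone ABTr2 (1.00, adjusted p = 0.038). None of the 15 passed without ABTr1 replicate 1, and without the clone ABTr4, 2 did.

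Differences of ABTr1 also ran along chromosome stretches. Tested genes were ordered by hg19 position and medians were taken over windows of 51 neighbouring genes. Stretches were kept where the median reached 0.3 on the log2 scale in either direction, a limit chosen after seeing the data. The stretches and windows were picked by the same fold changes, so their counts only describe them. Over all tested genes 6.94% passed as higher and 4.43% as lower. On chromosome 4 most of the short arm was higher and parts of the long arm were lower. The highest window of chromosome 4 ran from SLC34A2 to CNGA1 (chr4:25657435-48014961), with a median of 0.66, 44 of 51 genes positive and 26 passing as higher against 0 as lower. Its median was 0.66 against ABTr2, 0.74 against ABTr3 and 0.35 against ABTr4, and 0.63 and 0.60 in replicates 1 and 2. CHRNA9, a subunit of the nicotinic acetylcholine receptor in this window, stood at 13.4 and 16.7 CPM in ABTr1 and at 1.19 to 5.23 elsewhere (log2 fold change 2.27, SE 0.26, adjusted p = 0.0007). SMIM14, FAM114A1 and NSUN7 in the same window also passed against each clone, with log2 fold changes of 1.56, 1.24 and 1.08, and RBM47, an RNA-binding protein of epithelia, was higher by 1.52 (SE 0.16, adjusted p = 0.00044). Beyond it the sign turned: from KIAA1211 to MRPS18C (chr4:57036361-84382929) the median of 93 genes was -0.30, with 17 lower and 4 higher, and -0.35, -0.36 and -0.25 against the 3 clones. The CXCL cluster lies in this stretch.

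On chromosome 3 the stretch from CNTN4 to ZNF501 (chr3:2140550-44778575) was higher, with a median of 0.32 over 210 genes, 172 of them positive. In it 48 genes passed as higher (background 6.94%) and 1 as lower (background 4.43%). The median of the stretch was 0.24, 0.30 and 0.50 against ABTr2, ABTr3 and ABTr4. VHL, XPC, TGFBR2, RARB and SATB1 lie in it. XPC, a damage sensor of nucleotide excision repair, stood at 89.4 and 103 CPM in ABTr1 and at 53.7 to 64.2 elsewhere (log2 fold change 0.74, SE 0.14, adjusted p = 0.0082). Chromosome 3 as a whole had the largest median of all chromosomes in the mean comparison, 0.15, with 0.12, 0.02 and 0.24 against ABTr2, ABTr3 and ABTr4. It was not the largest against any single clone. Chromosome 20 lay higher against ABTr2, at 0.26, chromosome 21 against ABTr3, at 0.26, and chromosome X against ABTr4, at 0.246 beside 0.241. Some other stretches also varied with the clone. On chromosome 5, from PLEKHG4B to MCIDAS (chr5:140373-54523143), the median of -0.31 was -0.54 against ABTr2 and -0.44 against ABTr4 but 0.07 against ABTr3. On chromosome 7, from HIP1 to STAG3L5P (chr7:75162619-99965454), the median of 0.31 was 0.74 against ABTr4, 0.09 against ABTr2 and 0.00 against ABTr3. On chromosome 9, from WASH1 to LINGO2 (chr9:14511-29212998), the median of 0.32 was 0.90 against ABTr3, 0.18 against ABTr2 and 0.07 against ABTr4. A stretch that differs from 1 clone only is thus carried into the mean, and RNA counts do not measure copy number.

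**Figure D5:**
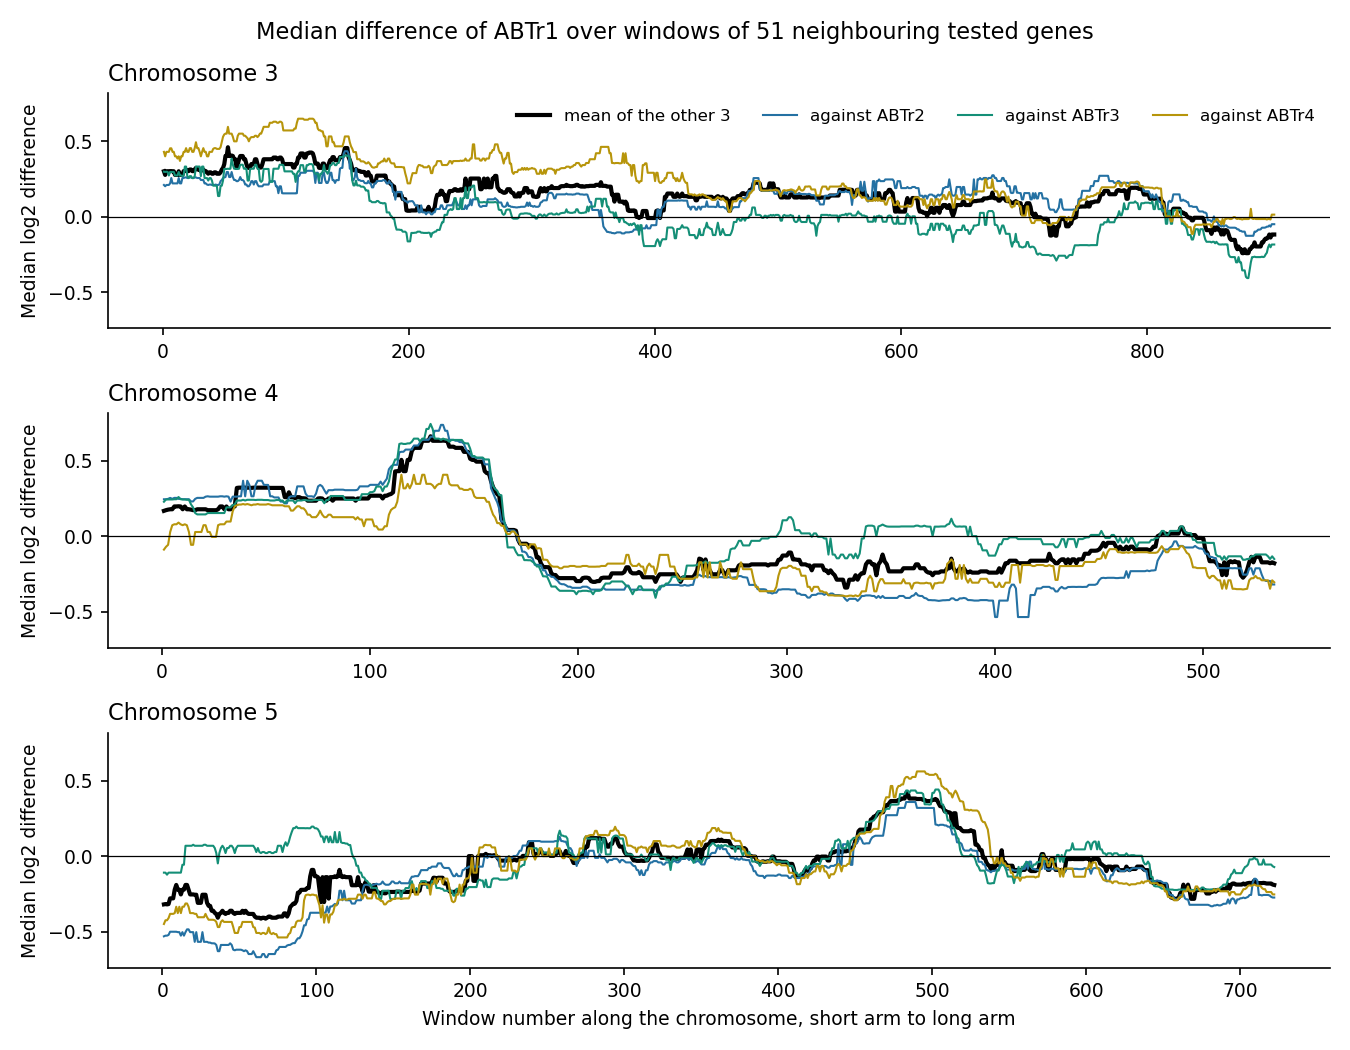
Median log2 difference of ABTr1 over windows of 51 neighbouring tested genes along chromosomes 3, 4 and 5, against the mean of the other 3 clones (black) and against each clone (coloured), with windows numbered from the end of the short arm. On chromosome 4 all 4 lines rise to a peak (0.66 in black) and then fall below 0, and at the start of chromosome 5 the ABTr3 line lies above 0 while the others lie below.

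The genes with the highest ABTr1 levels among those called covered both directions. DCBLD2, a membrane protein of the neuropilin type, stood at 2037 and 2407 CPM in ABTr1 and at 1168 to 1654 elsewhere (log2 fold change 0.66, SE 0.14, adjusted p = 0.014). PPIA, the prolyl isomerase cyclophilin A, stood at 1193 and 1174 in ABTr1 and at 1397 to 2272 elsewhere (log2 fold change -0.63, SE 0.17, adjusted p = 0.032). ALDH1A3, PSAP, TIMP2 and VHL followed on the higher side, and RPS2, GNB2L1, CALM2 and RPL5 on the lower. No library overlapped between ABTr1 and the other clones for DCBLD2, PPIA, ALDH1A3, VHL, RPS2 and CALM2. The same held for 50.1% of all genes called higher and 54.0% of all called lower, so it does not set these genes apart.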

How the data were processed

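RNA sequencing of 2 libraries each from PEO1 and 4 resistant clones was deposited as a table of raw read counts per gene, with 25370 genes on hg19. Polyadenylated RNA was made into unstranded libraries, per the labels' protocols. The submitters' processing notes name TopHat2 (version 2.0.14), featureCounts (version 1.4.6) and Subread. Because strand was not kept, reads of overlapping and antisense genes cannot be told apart. How reads shared by close paralogs were counted is not given in the sources used here. The descriptions number the clones differently from the sample names, and the names were used.

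The counts of the 8 clone libraries were fitted with edgeR 4.0.16 (R 4.3.3) by its quasi-likelihood test, with a term for each clone and the replicate number as a block, and p-values were adjusted by Benjamini-Hochberg over 16343 genes left by edgeR's filter on low counts. The fit had 3 residual degrees of freedom. The labels do not say what a replicate number marks. Replicate deviations correlated at 0.456 or more in all 6 pairs of clones, and the numbers were taken as pairing the libraries. Levels are counts scaled by depth (CPM) over TMM-scaled library sizes of all 10 libraries. The standard error was taken as the log2 fold change divided by the square root of F. The fit was tried on counts simulated from its own means and spread with the replicate block kept. Such counts cannot show whether the block suits the real libraries.

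Named genes are the 15 largest differences in each direction among genes called against each clone, given 5 CPM or more in whichever group was higher, up to 4 called genes per list by adjusted p, a set of resistance genes named in any case, and the 5 called genes with the highest level in each direction. SOD2, CXCL2, CXCL3, ADM, VEGFA, FDFT1, SQLE, SLIT2, SMIM14, FAM114A1, NSUN7 and RBM47 were chosen after their values were seen. The comparison and the 45 gene lists (1141 of 1144 entries matched, 1012 tested) were chosen with earlier results of these data known. Lists are described by counts and medians, with no set test.

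Alternatives were the fit without the block, all 10 libraries, DESeq2 1.42.0, DESeq2's size factors in edgeR, limma-voom (limma 3.58.1), no filter on low counts, leaving out each library or each other clone, and the clone as the unit. Figures were drawn with matplotlib 3.10.9.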

Additional observations from a re-analysis of the deposited data

How the results depend on the processing

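The number of genes passing in ABTr1 against the mean of the other clones (1858) depended on the replicate block and on single libraries. Without the replicate block 2 genes passed, with all 10 libraries 489, without the clone ABTr2 2804, without the clone ABTr4 712, and with the clone as the unit 1. Leaving out each library in turn gave 72 (without ABTr1 replicate 1) to 2678 (without ABTr2 replicate 2). Against ABTr2 (288), no replicate block gave 0 genes in edgeR's test with 914 at an unadjusted p under 0.05, all 10 libraries gave 2, DESeq2 994, limma-voom 474 and no filter 842, and leaving out each library gave 11 to 634. Against ABTr3 (1629), no replicate block gave 0 with 1311 at an unadjusted p under 0.05, all 10 libraries 189, and each library left out 221 to 2391. Against ABTr4 (1626) the same settings gave 0 without the replicate block with 1500 at an unadjusted p under 0.05, 254, and 45 to 2299. Against each clone at once (120), they gave 0 without the replicate block, 2 with all 10 libraries, 359 with DESeq2, 184 with limma-voom, 312 without the filter, and 6 to 317. The fit without the block had a biological coefficient of variation of 0.356, against 0.195 with it.

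The median of chromosome 3, 0.15, was 0.18 without the clone ABTr3 and 0.082 without the clone ABTr4, and 0.10 to 0.17 with each library left out. Without ABTr1 replicate 1 the log2 fold change turned sign for EGR1 (-0.30), PARP1 (0.19), ABCG2 (-0.53), UPF1 (0.33) and PARG (0.0017). PARG was also 0.038 without ABTr3 replicate 2 and 0.020 without ABTr4 replicate 1, and UPF1 was 0.0029 without the clone ABTr4. Over all single libraries left out, the range was -0.30 to 3.51 for EGR1, -0.45 to 0.19 for PARP1, -0.53 to 1.38 for ABCG2, -0.54 to 0.33 for UPF1 and -0.097 to 0.038 for PARG. Of these genes EGR1 alone had passed. Of 194 called genes that were named or examined, 193 kept their sign under every setting and 2 passed without the replicate block. The cause of these changes was not tested. BRCA2, PARP2 and ABCG2 passed only without ABTr2 replicate 2 and without the clone ABTr2.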
